A study of Mus musculus with 16 samples.

Results

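The core circadian clock genes, Arntl, Clock, Npas2, Per1, Per2, Per3, Cry1, Cry2, Nr1d1 and Dbp, were described in RNA-seq of mouse hippocampus. They were taken by gene name from the expression table, in which 10 of 22572 gene names are theirs. Each name is carried by 1 locus, and all 10 genes passed the filter for testing, a mean of at least 1 FPKM (read fragments divided by transcript length and by the library's mapped fragments). The 16 libraries come from male C57BL/6 mice and form 4 groups of 4. These are wild-type mice on regular water (WTCtrl), wild-type mice on water with 15% w/v fructose (WTFru), biglycan knockout mice, Bgn0/-, on regular water (BgnCtrl) and Bgn0/- mice on the fructose solution (BgnFru). The mice were 3 months old when the drinks began, which lasted 6 weeks. Biglycan is a matrix proteoglycan with leucine-rich repeats. Which part of Bgn was deleted, whether a library is 1 animal or a pool, and the clock time at which tissue was taken are not given in the sources used here. If the samples of a group were not separate animals, the p-values measure only the spread between these samples.

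In the mammalian clock, BMAL1 (the product of Arntl) pairs with CLOCK, or in forebrain with NPAS2, and activates genes through E-box motifs. These proteins form the positive arm. Among their targets are the Per and Cry genes, whose products return to the nucleus and repress the same pair, which makes them the negative arm. Nr1d1 (REV-ERB alpha) is also a target, and its product represses Arntl, while Dbp is an output gene whose product activates promoters with D-boxes. Transcripts of Arntl and of Dbp therefore peak at opposite times of day in most rodent tissues. Per1 is in addition induced by neuronal activity and by glucocorticoids, through elements in its promoter that the clock proteins do not use. The hippocampus has a clock of its own, which follows the suprachiasmatic nucleus.

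The sites through which both arms meet can be read in the promoters. RefSeq windows of 300 bases around a transcription start (build GRCm38.p6) were matched by symbol for 9 of the 10 genes, in 13 windows. Per2 had no entry. Searched on both strands were the E-box cacgtg, the E-prime box cacgtt, the D-box in its forms ttatgtaa and also ttacgtaa, the core of the REV-ERB and ROR element as taggtca and also as tgggtca, and the cyclic AMP response element tgacgtca. Over all 32851 windows, 7.15% hold the E-box, 4.68% the E-prime box, 1.06% the D-box, 6.45% the REV-ERB and ROR core and 1.79% the cyclic AMP element. The 4 windows below, written 5′ to 3′ with the matches in capitals, are shown because Per1, Cry1 and Cry2 carry the genotype differences described here and Arntl is the gene against which the others were set. They lie at chr11:69098699-69098998 on the plus strand for Per1, chr10:85185005-85185304 on the minus strand for Cry1, chr2:92434020-92434319 on the minus strand for Cry2 and chr7:113207261-113207560 on the plus strand for Arntl.
Per1: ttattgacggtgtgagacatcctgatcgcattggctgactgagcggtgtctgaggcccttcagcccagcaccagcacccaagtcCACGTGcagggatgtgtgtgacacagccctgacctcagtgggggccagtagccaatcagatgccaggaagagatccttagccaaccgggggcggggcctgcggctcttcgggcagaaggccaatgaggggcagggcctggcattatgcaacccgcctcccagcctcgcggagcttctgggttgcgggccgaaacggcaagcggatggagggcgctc
Cry1: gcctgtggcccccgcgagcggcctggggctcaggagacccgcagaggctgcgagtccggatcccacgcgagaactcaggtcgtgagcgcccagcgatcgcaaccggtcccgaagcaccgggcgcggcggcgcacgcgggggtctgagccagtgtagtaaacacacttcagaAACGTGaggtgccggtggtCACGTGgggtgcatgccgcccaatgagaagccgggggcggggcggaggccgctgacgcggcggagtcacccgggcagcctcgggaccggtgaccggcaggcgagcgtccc
Cry2: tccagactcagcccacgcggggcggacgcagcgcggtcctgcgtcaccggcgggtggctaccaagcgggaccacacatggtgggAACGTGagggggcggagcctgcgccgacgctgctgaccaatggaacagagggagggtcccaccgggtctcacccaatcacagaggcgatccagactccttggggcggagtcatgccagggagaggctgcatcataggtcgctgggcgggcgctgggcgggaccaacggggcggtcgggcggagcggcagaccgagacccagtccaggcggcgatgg
Arntl: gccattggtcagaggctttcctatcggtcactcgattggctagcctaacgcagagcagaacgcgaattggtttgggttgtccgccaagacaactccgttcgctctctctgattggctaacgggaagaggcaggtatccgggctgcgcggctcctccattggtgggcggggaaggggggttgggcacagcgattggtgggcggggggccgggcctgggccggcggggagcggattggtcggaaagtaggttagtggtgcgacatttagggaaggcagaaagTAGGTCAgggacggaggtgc
The first letter of the Per1 E-box is 166 bases before the start, and the Cry1 window holds an E-prime box 79 and an E-box 60 bases before it. The Cry2 window holds an E-prime box 166 bases before the start, and the Arntl window a REV-ERB and ROR core just after it. No match overlapped another. Of the windows not printed, that of Nr1d1 holds an E-prime box 28 bases before the start and that of Per3 holds D-boxes 205 and 158 bases before it. For Per1 and Arntl the window with a match was printed, and the other window of each gene holds none of these letters. The windows of Dbp, Clock and Npas2 hold none either, and none of the 13 windows holds the cyclic AMP element. A match is a description of the sequence and no evidence of binding in these samples.

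Several features of the libraries touch the results. The first replicate of each group stood apart: 50.4% of the 12648 genes tested differed between replicate 1 and replicates 2 to 4. Of the clock genes 6 did, with Arntl, Npas2, Per1, Per2 and Nr1d1 lower in replicate 1 (log2 differences of -0.32, -0.45, -0.28, -0.21 and -0.30) and Cry1 higher (0.16). The counts of clock genes called by genotype are therefore also given with a term for replicate 1 and from replicates 2 to 4 alone, and those of the other gene lists with the term. Bgn itself was lowest in replicate 1 of every group, at 9.94, 5.42, 4.46 and 5.02 FPKM in WTCtrl, WTFru, BgnCtrl and BgnFru. It ranged from 4.46 to 7.60 FPKM in the knockout libraries and from 9.94 to 24.2 FPKM in 7 of the 8 wild-type libraries. The 5.42 FPKM of the library labelled WTFru replicate 1 lay inside the knockout range. Several genotype results that rest on that library are also given without it. That library also had the lowest summed level of choroid plexus markers (229 FPKM) and of meningeal and fibroblast markers (25.5 FPKM). BgnFru replicate 4 had the highest of both (9144 and 340 FPKM). Whether the genotype label of WTFru replicate 1 is right was not tested. Of 8 hippocampal neuron markers 7 were in the table, none of them at 0, and they summed to 257 to 450 FPKM. Of 7 suprachiasmatic and hypothalamic markers only Vip and Rgs16 passed the filter, and the list summed to 14.6 to 20.2 FPKM. The depth behind an FPKM value is unknown, so no counting interval is given.

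The clock genes differed widely in level, and their ranking changed little from library to library. Because FPKM is scaled to transcript length, levels can be compared between genes, as far as reads were assigned to the right gene. Nr1d1 shares 8.55% of its exonic bases with Thra (388 to 520 FPKM), and Dbp 18.01% with Sphk2, both on the opposite strand. The strand setting is not given, so how much of their levels comes from these neighbours is unknown. By the mean over the 16 libraries, Nr1d1 was highest at 65.9 FPKM, followed by Dbp (37.7), Cry2 (32.6), Per1 (19.97), Arntl (14.1), Npas2 (11.7), Clock (10.95), Per2 (6.96), Cry1 (5.80) and Per3 (5.19). Nr1d1 exceeded Dbp, Cry2 exceeded Per1, Per1 exceeded Arntl and Clock exceeded Per2 in all 16 libraries. The other neighbours changed places in some: Dbp was above Cry2 in 12, Arntl above Npas2 in 13, Npas2 above Clock in 11, Per2 above Cry1 in 12 and Cry1 above Per3 in 14 of 16. Within groups, Npas2 varied most, with an SD of 0.29 on the log2(FPKM + 1) scale, more than 91.5% of the genes tested. Dbp (0.27), Per1 (0.24) and Arntl (0.23) followed, Cry2 varied least (0.083), and the median gene had 0.15. In bulk tissue, fewer cells of a type and less RNA per cell cannot be told apart.

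**Figure D1:**
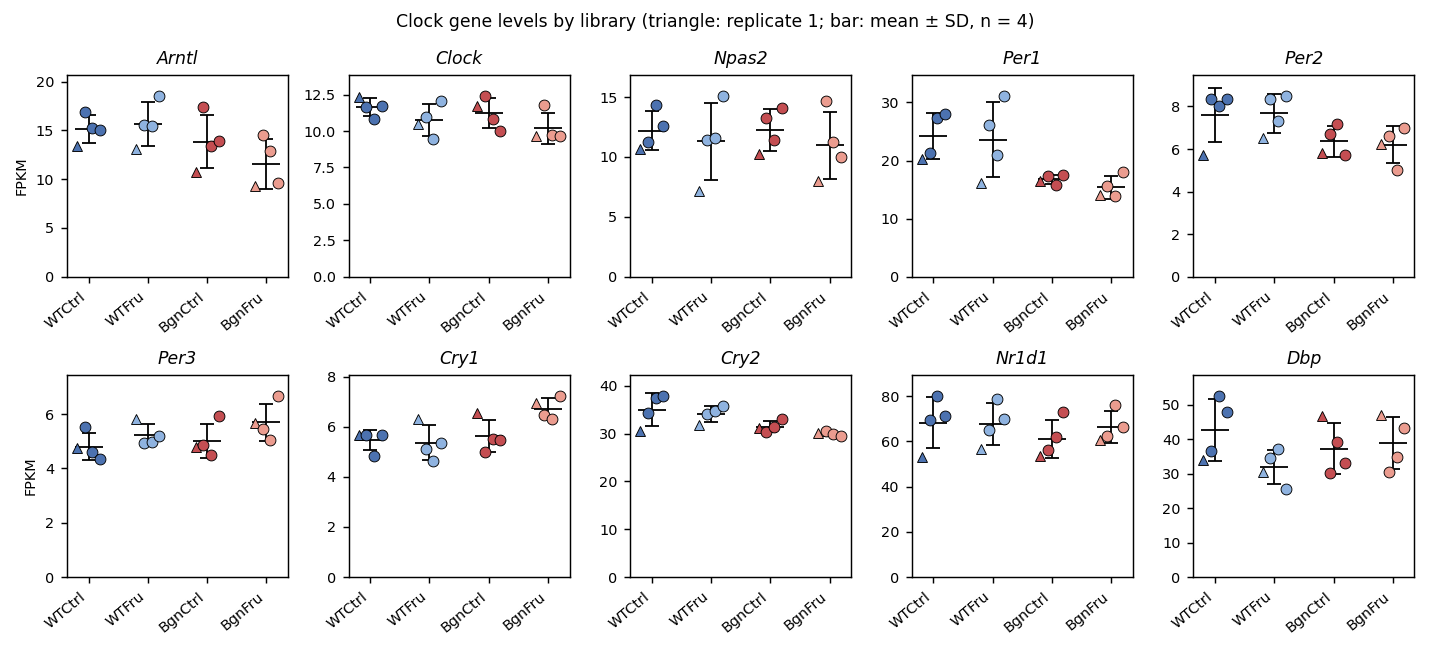
FPKM of each clock gene (vertical axis, starting at 0) in every library of the 4 groups (horizontal axis). Triangles are replicate 1, circles replicates 2 to 4, and bars the mean ± SD of 4 libraries. Per1 in both knockout groups lies between 13.9 and 18.02 FPKM, and the single wild-type point in that range is the library labelled WTFru replicate 1.

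The first comparison asks how loss of biglycan went with the negative arm. Per1 was the clock gene with the largest genotype difference, with fitted folds of 0.712 on water and 0.681 on fructose for knockout against wild type on the FPKM + 1 scale. Per2 and Cry2 had lower group means in the knockout too, by smaller amounts. Cry1 had a higher mean in the knockout on fructose, and Per3 showed little difference.

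Per1 (chromosome 11, mm10, bases 69095217 to 69109960, plus strand) encodes the period protein that responds fastest to light and activity. Its level was 20.2, 21.2, 27.3 and 27.9 FPKM in the 4 WTCtrl libraries and 16.4, 17.4, 15.8 and 17.5 FPKM in the 4 BgnCtrl libraries. All knockout libraries on water lay below all wild-type libraries on water. On fructose it was 16.2, 26.1, 21.0 and 31.1 FPKM in WTFru and 14.1, 15.6, 13.9 and 18.02 FPKM in BgnFru. These groups overlapped through 1 library, that labelled WTFru replicate 1, whose 16.2 FPKM lay below the highest BgnFru value. The group means were 24.2 ± 3.99 against 16.8 ± 0.814 FPKM on water and 23.6 ± 6.43 against 15.4 ± 1.92 FPKM on fructose (SD, n = 4 each). With limma over 12648 genes and Benjamini-Hochberg adjustment, the difference on the log2(FPKM + 1) scale was -0.49 (SE 0.16) on water with an adjusted p of 0.439, and -0.55 (SE 0.16) on fructose with an adjusted p of 0.0622. Neither passed 0.05 on its own. Averaged over both drinks, a comparison added after the values had been seen and built from the same libraries, Per1 fell by 0.52 (log2 difference -0.52, SE 0.11, adjusted p 0.0135). The averaged call held in every fit that left out 1 library (adjusted p 0.00194 to 0.0326), and without the library labelled WTFru replicate 1 the difference was -0.60 with an adjusted p of 0.00194. On fructose, leaving out that library gave -0.71 with an adjusted p of 0.0152, and leaving out others gave adjusted p up to 0.179.

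Per2 (chromosome 1, bases 91415982 to 91459324, minus strand) encodes the second period protein, which keeps rhythms going in mice in darkness. It was at 5.71, 8.34, 8.01 and 8.38 FPKM in WTCtrl and 5.84, 6.70, 7.20 and 5.71 FPKM in BgnCtrl. On fructose it was at 6.54, 8.36, 7.31 and 8.48 FPKM in WTFru and 6.22, 6.60, 5.04 and 6.9996 FPKM in BgnFru. The groups overlapped in both cases, through WTCtrl replicate 1 on water and through the library labelled WTFru replicate 1 on fructose. The log2 differences were -0.22 on water and -0.27 on fructose, with adjusted p of 1 and 0.211, and the average was -0.24 with an adjusted p of 0.111. The average passed the threshold with a term for replicate 1 (adjusted p 0.0282), from replicates 2 to 4 alone (0.0215), and without WTCtrl replicate 1 (0.0283). The fructose difference passed in no fit that left out 1 library (adjusted p 0.149 to 0.437). Its lowest value there was without the library labelled WTFru replicate 1. Per1 exceeded Per2 by a smaller factor in the knockout: the ratio of their FPKM was 3.21 ± 0.449 in WTCtrl, 3.03 ± 0.499 in WTFru, 2.67 ± 0.367 in BgnCtrl and 2.49 ± 0.219 in BgnFru (SD, n = 4), with overlapping ranges and no test.

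Per3 (chromosome 4, bases 151003652 to 151044665, minus strand), the period gene that the rodent clock can do without, ranged from 4.33 to 6.65 FPKM over all libraries. Its group means were 4.80 ± 0.509, 5.23 ± 0.398, 5.02 ± 0.617 and 5.70 ± 0.685 FPKM in WTCtrl, WTFru, BgnCtrl and BgnFru. The knockout differed from wild type by 0.052 (95% interval -0.14 to 0.24) on water and 0.10 (-0.092 to 0.29) on fructose, both on the log2 scale.

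The cryptochrome genes, which encode the main repressors of CLOCK and BMAL1, had differences of opposite sign on fructose. Cry2 (chromosome 2, bases 92403646 to 92434043, minus strand) was at 34.0, 34.7, 35.7 and, in the library labelled WTFru replicate 1, 31.8 FPKM in WTFru, and at 30.2, 30.5, 29.9 and 29.5 FPKM in BgnFru. The fructose groups did not overlap. On water it was at 30.5, 34.3, 37.5 and 37.8 FPKM in WTCtrl and 31.1, 30.2, 31.5 and 33.0 FPKM in BgnCtrl, overlapping through WTCtrl replicate 1. The difference was -0.18 (SE 0.067, adjusted p 0.141) on fructose, -0.15 (adjusted p 0.909) on water and -0.16 (SE 0.047, adjusted p 0.0607) on average. The fructose difference passed the threshold with a term for replicate 1 (adjusted p 0.0344) and from replicates 2 to 4 alone (0.0332). It passed in no fit that left out 1 library (adjusted p 0.112 to 0.312). The lowest of these was without the library labelled WTFru replicate 1. The processed transcript D930015M05Rik shares 295 bases, or 4.67%, of the Cry2 exons on the opposite strand, and reads of the pair cannot be told apart where counting ignored strand.

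Cry1 (chromosome 10, bases 85131700 to 85185064, minus strand) was at 6.31, 5.12, 4.65 and 5.34 FPKM in WTFru and 6.95, 6.47, 6.30 and 7.21 FPKM in BgnFru. The highest WTFru value, again from the library labelled WTFru replicate 1, lay just above the lowest BgnFru value, and the other WTFru libraries lay below all of BgnFru. On water the groups were interleaved, at 5.68, 5.66, 4.85 and 5.67 FPKM in WTCtrl and 6.55, 5.004, 5.51 and 5.49 FPKM in BgnCtrl. The difference on fructose was 0.29 (SE 0.087, adjusted p 0.0752), with group means of 6.73 ± 0.420 in BgnFru and 5.36 ± 0.699 FPKM in WTFru, and that on water was 0.035 (95% interval -0.15 to 0.22). Without the library labelled WTFru replicate 1 the fructose difference had an adjusted p of 0.0367, and with a term for replicate 1 it had 0.0122. The difference averaged over both drinks had an adjusted p of 0.143, and of 0.0658 without that library. The change of the genotype difference with drink was 0.25 (95% interval -0.0096 to 0.52, adjusted p 0.999). The ratio of Cry1 to Cry2 FPKM, picked out after the values were seen and not tested, was 0.211, 0.212, 0.230 and 0.245 in the BgnFru libraries and 0.134 to 0.198 in WTFru. It was 0.166 to 0.211 in BgnCtrl and 0.129 to 0.186 in WTCtrl, so BgnFru lay above both wild-type groups.

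**Figure D2:**
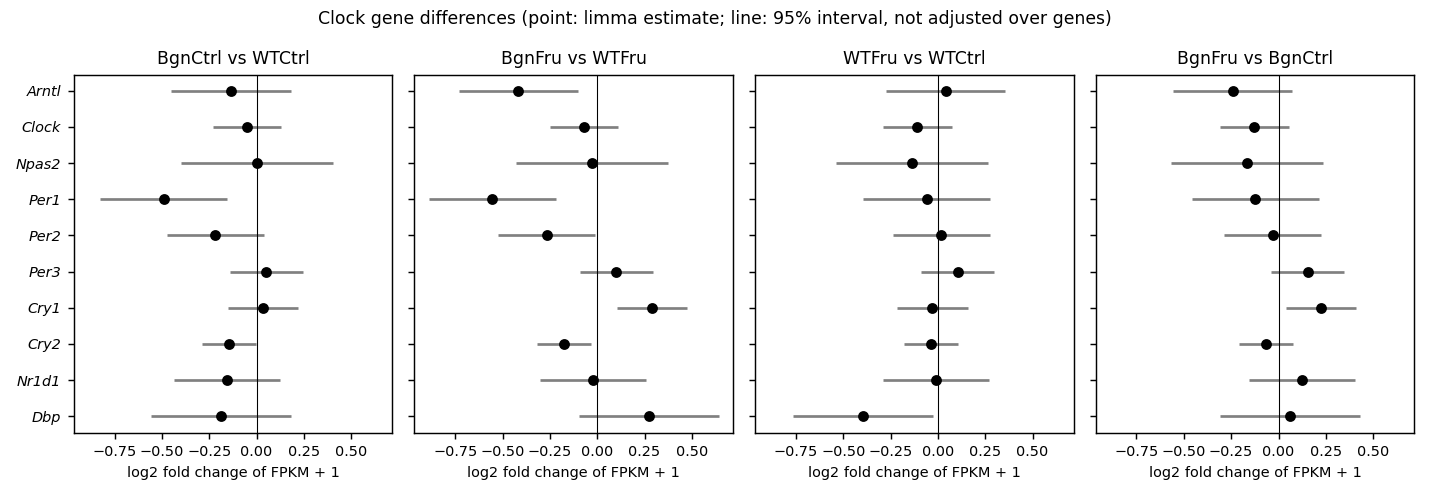
Differences on the log2(FPKM + 1) scale (horizontal axis) of the 10 clock genes (rows) in 4 comparisons. Points are limma estimates and lines their 95% intervals, which are not adjusted over genes. Per1 lies furthest to the left in both knockout comparisons, at -0.49 on water and -0.55 on fructose.

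In the positive arm, Arntl had a lower mean in the knockout on fructose, and Clock and Npas2 showed little difference by genotype. Arntl (chromosome 7, bases 113207465 to 113314126, plus strand), which encodes BMAL1, without which the mouse clock stops, was at 13.1, 15.6, 15.4 and 18.5 FPKM in WTFru and 9.33, 14.6, 12.9 and 9.59 FPKM in BgnFru. The lowest BgnFru values were in replicates 1 and 4, and the groups overlapped. On water it was at 13.4, 16.9, 15.2 and 15.0 FPKM in WTCtrl and 10.7, 17.4, 13.4 and 13.9 FPKM in BgnCtrl, where the highest value of both groups was a knockout library. The difference was -0.42 (SE 0.15, adjusted p 0.122) on fructose and -0.13 (adjusted p 1) on water. The fructose difference passed the threshold with a term for replicate 1 (adjusted p 0.0193), and from replicates 2 to 4 alone it was -0.41 with an adjusted p of 0.0709. It did not pass in any fit that left out 1 library (adjusted p 0.0582 to 0.345).

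Npas2 (chromosome 1, bases 39193731 to 39363236, plus strand), the forebrain counterpart of Clock, was at 10.7, 11.3, 14.3 and 12.6 FPKM in WTCtrl, 7.13, 11.4, 11.6 and 15.1 FPKM in WTFru, 10.3, 13.2, 11.4 and 14.1 FPKM in BgnCtrl and 7.97, 14.6, 11.3 and 9.99 FPKM in BgnFru. The spread inside each group was as large as any distance between groups, and replicate 1 was lowest in all 4 groups. Clock (chromosome 5, bases 76209868 to 76304792, minus strand) had group means of 11.6 ± 0.627, 10.7 ± 1.09, 11.2 ± 1.04 and 10.2 ± 1.06 FPKM in WTCtrl, WTFru, BgnCtrl and BgnFru. The genotype difference averaged over drinks was -0.059 (95% interval -0.19 to 0.068) for Clock and -0.012 (-0.29 to 0.27) for Npas2.

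The stabilising loop and the output gene showed no genotype difference past the threshold. Nr1d1 (chromosome 11, bases 98767932 to 98775333, minus strand) ranged from 53.1 to 79.9 FPKM, with means of 68.4 ± 11.2, 67.7 ± 9.38, 61.1 ± 8.57 and 66.5 ± 6.98 FPKM in WTCtrl, WTFru, BgnCtrl and BgnFru. Its exons share 263 bases, or 8.55%, with Thra on the opposite strand, a thyroid hormone receptor gene at 388 to 520 FPKM in these libraries, and their reads there cannot be told apart without strand. Dbp (chromosome 7, bases 45705088 to 45710203, plus strand) was at 33.8, 36.5, 52.4 and 47.8 FPKM in WTCtrl and 30.6, 34.6, 37.0 and 25.5 FPKM in WTFru. It was at 46.8, 30.1, 39.1 and 33.0 FPKM in BgnCtrl and 47.0, 30.6, 34.9 and 43.2 FPKM in BgnFru. All group pairs overlapped, and the highest and the lowest value of the gene were both in wild-type libraries. The genotype difference was -0.19 on water and 0.27 on fructose, with adjusted p of 1 and 0.388. The Dbp exons share 539 bases, or 18.01%, with Sphk2 on the opposite strand, whose level was 9.58 to 12.9 FPKM.

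Counted over the clock genes, the genotype comparison made no call on either drink in limma. On water 0 of 10 passed an adjusted p of 0.05, beside 0.387% of all genes tested. An unadjusted p under 0.05 was found for 2 of 10 (Per1 and Cry2), beside 674 of all 12648 genes. On fructose 0 of 10 passed beside 3.76% of all genes. Here 5 of 10 had an unadjusted p under 0.05 (Per1, Cry1, Arntl, Cry2 and Per2), beside 2691 of all 12648 genes. Averaged over both drinks 1 of 10 passed, Per1, beside 4.99% of all genes. Taking replicate 1 into account raised the counts of clock genes and of all genes. With a term for it, 4 of 10 passed on fructose (Arntl, Per1, Cry1 and Cry2) beside 17.3% of all genes, and 5 of 10 on average (those and Per2) beside 18% of all genes. From replicates 2 to 4 alone, 3 of 10 passed on fructose (Per1, Cry1 and Cry2) beside 10.9%, and 3 of 10 on average (Per1, Per2 and Cry2) beside 12.6%. On water the count stayed at 0 in both, beside 0.996% with the term and 0.625% from replicates 2 to 4. Groups that did not overlap were found for Per1 on water, lower in the knockout as were 2.26% of all genes (1.75% were higher), and for Cry2 on fructose, lower as were 6.43% (4.61% were higher).

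The second comparison asks what 6 weeks of fructose did within each genotype. No clock gene passed the threshold: 0 of 10 in wild type beside 0.00791% of all genes (1 gene), and 0 of 10 in the knockout beside 0% of all genes. No clock gene had separate groups by drink, where 0.783% of all genes were lower and 1.09% higher in wild type and 2.11% lower and 1.88% higher in the knockout. Dbp had the largest difference in wild type, with 31.9 ± 5.04 FPKM on fructose against 42.6 ± 8.90 FPKM on water, a log2 difference of -0.40 (95% interval -0.77 to -0.027, adjusted p 1). In the knockout it was 0.061 (-0.31 to 0.43). The change of the drink difference with genotype was 0.46 (-0.065 to 0.98) for Dbp, with an adjusted p of 0.999, so the 2 genotypes were not shown to differ. Cry1 had the lowest p in the knockout, with 6.73 ± 0.420 on fructose against 5.64 ± 0.650 FPKM on water, a difference of 0.22 (0.038 to 0.41, adjusted p 0.327). By unadjusted p under 0.05, Dbp was the only clock gene in wild type and Cry1 the only one in the knockout. Of all 12648 genes, 263 reached this in wild type and 1630 in the knockout. For the interaction of genotype and drink 0 of 10 passed beside 0.00791% of all genes. None had an unadjusted p under 0.05, beside 368 of all 12648 genes. For fructose averaged over both genotypes 0 of 10 passed, again beside 0.00791%. None was under an unadjusted p of 0.05, beside 1367 of all 12648 genes. The intervals of the averaged drink difference reached furthest for Npas2, from -0.43 to 0.13, and least far for Cry2, from -0.15 to 0.050.

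Whether both arms moved in opposite ways was asked first between groups. By genotype, the mean of the positive arm (Arntl, Clock, Npas2) and that of the negative arm (Per1, Per2, Per3, Cry1, Cry2) each had a lower mean in the knockout on either drink, with overlapping libraries. From water to fructose in the knockout the mean of the positive arm was lower and that of the negative arm higher, again with overlapping libraries. The positive arm averaged 3.79 ± 0.057, 3.73 ± 0.22, 3.73 ± 0.15 and 3.56 ± 0.24 on the log2(FPKM + 1) scale in WTCtrl, WTFru, BgnCtrl and BgnFru (SD, n = 4). The negative arm averaged 3.62 ± 0.099, 3.62 ± 0.099, 3.47 ± 0.025 and 3.50 ± 0.10. The difference, negative minus positive, was -0.17 ± 0.051, -0.10 ± 0.14, -0.26 ± 0.15 and -0.053 ± 0.29, with all ranges overlapping. It was above 0 in 3 libraries, the one labelled WTFru replicate 1 (0.083), BgnFru replicate 1 (0.18) and BgnFru replicate 4 (0.20). No p is given for a mean over genes chosen with results known.

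**Figure D3:**
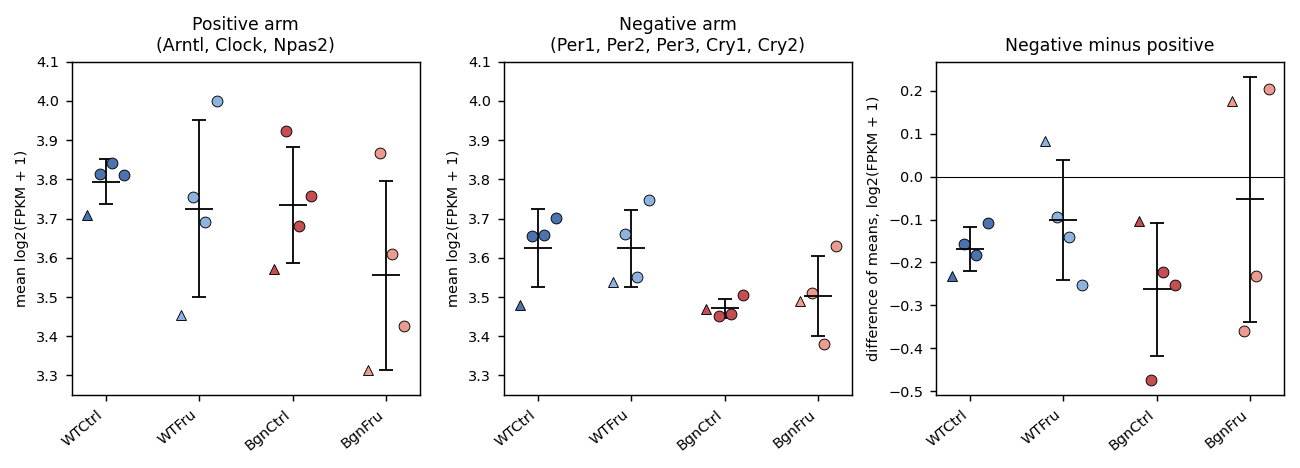
Mean log2(FPKM + 1) of the positive and of the negative arm and their difference (vertical axes; the 2 left panels do not start at 0) for every library of the 4 groups. Triangles are replicate 1, circles replicates 2 to 4, bars mean ± SD of 4 libraries. The difference spans from -0.47 in a BgnCtrl library to 0.20 in a BgnFru library, and all groups overlap.

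The question was asked next within groups, library by library, through the slope of each gene on Arntl after group means were removed. Npas2 followed Arntl, with a slope of 1.01 (SE 0.22, adjusted p 0.0171) in log2 units per log2 unit of Arntl. Dbp went against it, with a slope of -0.78 (SE 0.24, adjusted p 0.0468). These were the 2 of 9 clock genes that passed, beside 14.4% of the 12647 genes fitted. No gene of the negative arm passed: the slopes were 0.35 for Per1, 0.24 for Per2, -0.12 for Per3, -0.34 for Cry1 (adjusted p 0.0816) and 0.10 for Cry2, with 0.32 for Nr1d1 and 0.23 for Clock.

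These slopes depended on replicate 1. With a term for replicate 1, or from replicates 2 to 4 alone, 0 of 12647 genes passed, although 17.3% and 17.4% had an unadjusted p under 0.05. The slopes of Per1, Per2, Cry2 and Nr1d1 then turned negative, at -0.098, -0.084, -0.031 and -0.25 from replicates 2 to 4. Those of Clock (0.53) and Npas2 (0.66) stayed positive and that of Dbp became steeper, at -1.10 (SE 0.22, adjusted p 0.176). By its p, Dbp ranked 22 of 12647 genes from replicates 2 to 4, 48 with the term for replicate 1 and 1696 in the fit without that term. Dbp and Arntl were on opposite sides of their group means in 12 of 16 libraries, and in 11 of 12 when group means were taken from replicates 2 to 4. Leaving out 1 library gave Dbp an adjusted p of 0.0202 to 0.166, the highest without BgnCtrl replicate 1 (slope -0.70, adjusted p 0.166), and Npas2 one of 0.00552 to 0.0565. Npas2 missed the threshold without BgnCtrl replicate 1 and without BgnFru replicate 1. The 16 libraries have no recorded time of day, and its part in the spread was not tested.

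**Figure D4:**
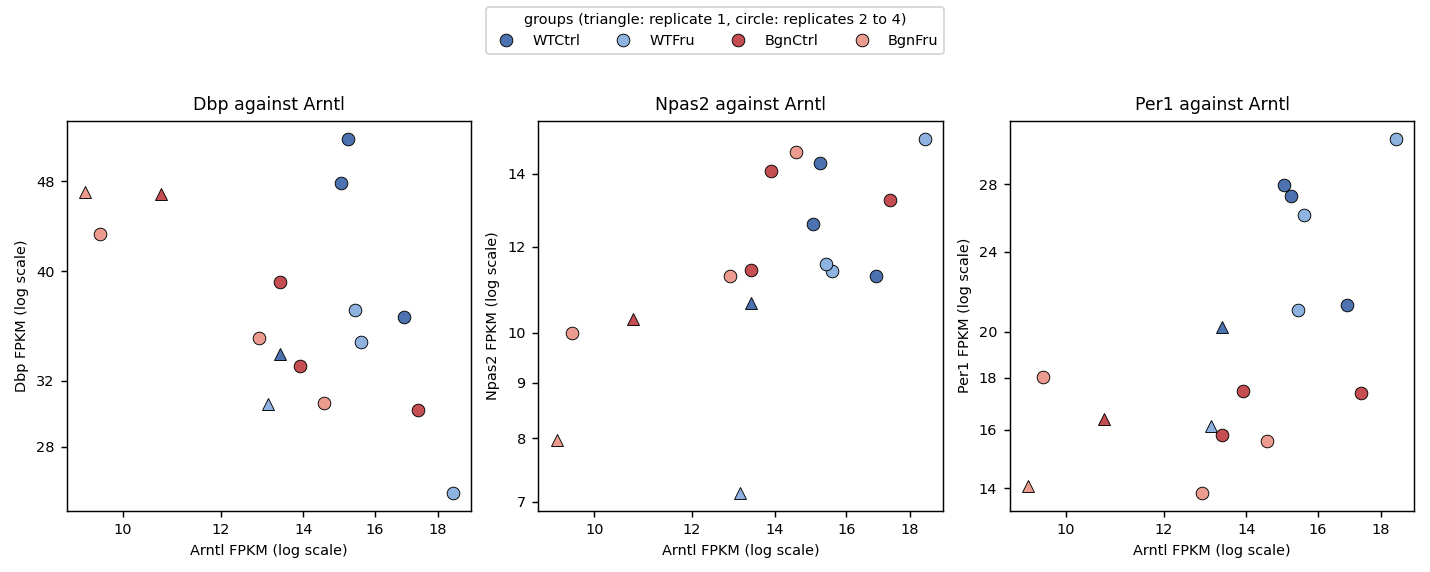
Dbp, Npas2 and Per1 (vertical axes) against Arntl (horizontal axes), all in FPKM on log scales, 1 point per library. Triangles are replicate 1. The library with the highest Arntl (18.5 FPKM) has the lowest Dbp (25.5 FPKM), and Per1 lies between 13.9 and 18.02 FPKM in knockout libraries while their Arntl ranges from 9.33 to 17.4 FPKM.

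Other genes of the clock gave few differences. Of 26 further clock genes, 24 were in the table and 22 passed the filter (Arntl2 and Timeless did not). None passed on water (0 of 22), 1 fell on fructose and the same 1 fell on average, beside 2.13% and 2.87% of all genes that fell. With a term for replicate 1, 2 fell and 1 rose on fructose (Bhlhe40 and Nono, and Bhlhe41) beside 9.39% and 7.92% of all genes, and 3 fell on average (Bhlhe40, Sik1 and Nfil3) beside 9.98%. The gene called in the fit without that term was Bhlhe40, which encodes DEC1, a repressor that competes for E-boxes. It was at 43.2, 40.01, 54.5 and 52.4 FPKM in WTCtrl and 39.8, 37.9, 38.4 and 35.2 FPKM in BgnCtrl. It was at 39.3, 45.6, 41.9 and 47.7 FPKM in WTFru and 38.4, 31.0, 31.8 and 26.7 FPKM in BgnFru. The knockout lay below wild type without overlap on both drinks, as did 2.26% of all genes on water and 6.43% on fructose taken singly. The log2 difference was -0.44 (SE 0.11, adjusted p 0.0382) on fructose and -0.38 (SE 0.078, adjusted p 0.0114) on average, and without the library labelled WTFru replicate 1 an alternative chosen for the other gene lists after the data were seen, the adjusted p were 0.0400 and 0.0109. The median difference over the 22 genes was 0.0085 on fructose and -0.00082 on average, beside -0.011 and -0.0052 over all genes. Sik1, an activity-induced kinase gene of the light input pathway, and Nfil3, which encodes the repressor that shares D-boxes with DBP, had averaged differences of -0.33 and -0.23 with adjusted p of 0.0600 and 0.0737. Without the library labelled WTFru replicate 1, Sik1 passed on average (-0.36, adjusted p 0.0458). Tef and Hlf, the relatives of Dbp, did not pass in any comparison. By drink 0 of 22 passed in either genotype.

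Among genes that respond to neuronal activity, several fell in the knockout. Of 15 immediate early genes, 2 fell on water, 4 fell on fructose and 9 fell on average, beside 0.213%, 2.13% and 2.87% of all genes that fell. None rose. With a term for replicate 1 the counts were 4, 7 and 10, beside 0.506%, 9.39% and 9.98%. The medians were -0.65, -0.47 and -0.53, beside -0.0011, -0.011 and -0.0052 over all genes. Egr1, an activity-induced transcription factor gene, was at 87.9 to 111 FPKM in WTCtrl, 63.2 to 134 in WTFru, 47.3 to 66.1 in BgnCtrl and 32.5 to 47.3 FPKM in BgnFru, a log2 difference of -0.95 on water and -1.20 on fructose (adjusted p 0.0471 and 0.00374). In the library labelled WTFru replicate 1 it was at 73.7 FPKM, above all knockout libraries. Nr4a3, an activity-induced nuclear receptor gene, differed by -0.53 and -0.68 (adjusted p 0.0358 and 0.00277), and Nr4a1 by -1.04 on fructose (adjusted p 0.0104). The summed level of the 15 genes was 387 to 490 FPKM in WTCtrl, 312 to 567 in WTFru, 237 to 341 in BgnCtrl and 228 to 260 in BgnFru, lowest among wild-type libraries in the one labelled WTFru replicate 1. Without that library 4 fell on fructose and 9 on average. The part of this in the Per1 difference was not tested. Glucocorticoid responsive genes made no call in limma (0 of 10 tested), with medians of -0.13 on water and -0.11 on fructose and, on average, Errfi1 lowest in p at -0.21 (adjusted p 0.119, and 0.0418 with a term for replicate 1, the 1 call of the list in that fit). Temperature responsive genes, which in cultured cells follow body temperature rhythms, made none either (0 of 8, with or without that term), with medians of -0.0075 and -0.062. In these lists 2 glucocorticoid genes and 0 temperature genes reached an unadjusted p under 0.05 on average, beside 2666 of all 12648 genes.

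Some cell type markers also differed by genotype. Of 8 astrocyte markers 3 rose on fructose (Gja1, Gfap and Aqp4) and 4 on average (those and Sox9), beside 1.63% and 2.12% of all genes that rose. With a term for replicate 1 it was 4 in both, beside 7.92% and 8.04%. The list had a median of 0.38 on fructose, and its summed level was 1278 to 1390 FPKM in WTFru and 1427 to 1941 FPKM in BgnFru. Without the library labelled WTFru replicate 1 only Gja1 passed on fructose (adjusted p 0.0355) and 3 passed on average. Of 7 hippocampal neuron markers, 1 fell on fructose and on average, Wfs1, a marker of CA1 pyramidal cells (-0.74 on fructose, adjusted p 0.00346), beside 2.13% and 2.87% of all genes that fell. With a term for replicate 1 Wfs1 alone fell on fructose, and Wfs1 and Neurod2 fell on average, beside 9.39% and 9.98% of all genes that fell. The list summed to 372 to 450 FPKM in WTFru and 257 to 400 FPKM in BgnFru. Oligodendrocyte, microglia, endothelial, choroid plexus, meningeal, striatal and hypothalamic markers made no call by genotype without a term for replicate 1. With it, 4 of 7 microglia markers (Tmem119, Csf1r, C1qa and C1qb), 2 of 7 meningeal (Ogn and Igf2) and 1 of 4 endothelial (Flt1) rose on fructose, beside 7.92% of all genes, and 2, 2 and 1 rose on average, beside 8.04%. All 7 microglia markers were above 0 on fructose (median 0.34), as were all 7 choroid plexus markers (median 1.10), all 7 meningeal (0.51) and all 4 endothelial markers (0.27). Without the library labelled WTFru replicate 1, the meningeal markers Dcn (-0.20) and Slc6a13 (-0.44) were below 0. The other meningeal markers then lay from 0.035 (Col1a1) to 0.71 (Igf2), and the choroid plexus markers from 0.30 (Kcnj13) to 0.82 (Kl). The microglia and endothelial markers stayed above 0. The summed level of the microglia markers was 130 to 165 FPKM in WTFru and 164 to 229 FPKM in BgnFru, and that of the choroid plexus markers 229 to 4445 and 2631 to 9144 FPKM. The part of cell composition in the differences of Per1, Cry1, Cry2 and Arntl was not tested.

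Over the 12 libraries of replicates 2 to 4, the genes whose levels were most like those of Dbp were Slc25a16 (Pearson r 0.837), Cirbp (0.824), Psmf1 (0.789), Fam229b (0.781) and Hey1 (0.766), ranked among 8721 genes of at least 5 FPKM on average. Those most like Arntl were Ogfod1 (0.950), Usp10 (0.948), Zfyve20 (0.945), Srr (0.944) and Pak7 (0.944). These r values describe 12 libraries of 4 groups, whose marker sums also varied, and no p is given. Cirbp, which encodes a cold-inducible RNA-binding protein, was at 34.4, 51.2 and 50.5 FPKM in WTCtrl replicates 2 to 4 and 34.5, 39.9 and 27.7 FPKM in those of WTFru, the order of libraries that Dbp has in these groups. It was at 37.0, 38.8 and 42.3 FPKM in BgnCtrl replicates 2 to 4 and 35.5, 41.5 and 37.8 FPKM in those of BgnFru, where the order differs from that of Dbp.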

How the data were processed

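The 16 libraries were described by their GEO labels, and the authors deposited 1 table of FPKM per locus. Per the submitters' processing notes, TopHat, TopHat2, Bowtie, Bowtie2, Cufflinks and Cuffdiff were used with mm10; versions, annotation, strand setting and library scaling are not given in the sources used here. The 4 columns of group FPKM were not used. Loci sharing a name were summed, giving 22572 names, of which 12648 had a mean of at least 1 FPKM. Values were tested as log2(FPKM + 1), which understates changes of low genes, with limma 3.58.1 in R 4.3.3 (4 group means, trended variance, two-sided, Benjamini-Hochberg over all genes tested, threshold 0.05), and checked on simulated data. The simulated data held no replicate 1 effect, so the check does not cover errors that such an effect brings. A second fit added Arntl as a covariate. Averaged comparisons were added after the values had been seen. The members and lists were chosen with earlier results of these data known. Set to be named were the 10 members, other clock genes that were called or lowest in p, up to 3 genes of each companion list by p, and the 5 genes most like Dbp and Arntl. Further genes of the lists were named where they passed in any fit, as were Tef and Hlf as relatives of Dbp. Meningeal and choroid plexus markers were also named by sign or as ends of a range without the library labelled WTFru replicate 1. Same-numbered libraries deviated together between drinks (correlations of deviations 0.118 to 0.699 in wild type and 0.197 to 0.612 in the knockout). The highest in each genotype was that of replicate 1, and replicates 2 to 4 alone gave -0.042 to 0.314. The labels state no pairing, so the drink comparisons were tested as unpaired, with a replicate block as an alternative. Gene positions and exon overlaps are from GENCODE (mm10), promoters from RefSeq (GRCm38.p6).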

Additional observations from a re-analysis of the deposited data

Results flagged for a closer look

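In 40 sets of 4 libraries (10 clock genes in 4 groups), 3 held a library whose distance from the nearest other was most of the range of its group. Chance alone marks about 1 in 20 sets. Clock in BgnFru replicate 2 was at 11.8 FPKM while the other BgnFru libraries lay between 9.63 and 9.70 FPKM. Per2 in WTCtrl replicate 1 was at 5.71 FPKM while the others lay between 8.01 and 8.38 FPKM, and without it the averaged Per2 difference between genotypes had an adjusted p of 0.0283 in limma (0.111 with it). Cry1 in WTCtrl replicate 3 was at 4.85 FPKM while the others lay between 5.66 and 5.68 FPKM.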

How the results depend on the processing

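Over 79 values of the clock genes and 1655 recomputations, 1510 kept their direction and their side of the threshold, 95 changed sign, 27 newly passed and 23 no longer passed. The pseudocount of 0.1, a mean of at least 5 FPKM and the highest locus of each name changed no call of a clock gene. On fructose, clock genes called between genotypes numbered 0 as reported (475 of all genes), 4 with a term for replicate 1 (2190) and 3 from replicates 2 to 4 (1377). They numbered 4 with a replicate block (2483 of all genes) and 1 without WTFru replicate 1 and BgnFru replicate 4 (137). When 1 library was left out they numbered 0 to 2, with 147 to 940 of all genes called. On average they numbered 1 as reported (631 of all genes), 5 with the term (2279), 3 from replicates 2 to 4 (1590) and 5 with the block (2508). When 1 library was left out they numbered 1 to 3, with 392 to 1061 of all genes called. Between drinks the replicate block changed no call. Between genotypes the same numbers did not deviate together in every pair (correlations -0.040 to 0.750), and the labels state no pairing by number. For the slope on Arntl the 2 calls became 1 with no filter or with median-ratio rescaling, 0 with the replicate 1 term, from replicates 2 to 4 or with the replicate block, and 0 to 2 when 1 library was left out, with 125 to 4350 genes called in all. The causes were not tested, apart from fewer samples in the last. Slopes that changed sign were, for Per1, Per2, Cry2 and Nr1d1, -0.19, -0.18, -0.099 and -0.30 with the replicate 1 term, -0.098, -0.084, -0.031 and -0.25 from replicates 2 to 4, and -0.033, -0.39, -0.0082 and -0.034 with the replicate block. From replicates 2 to 4, Cry1 became -0.012 for the knockout on water, Per1 0.023 and Per2 -0.032 for fructose in wild type, and Dbp -0.12 for genotype on average. Without WTFru replicate 1 and BgnFru replicate 4, Npas2, Per1 and Nr1d1 became 0.049, 0.10 and 0.071 for fructose in wild type and the Per3 slope 0.057. Leaving out 1 library of the groups compared turned the sign of small, uncalled differences, with these log2 ranges. For fructose in wild type these were Arntl -0.0386 to 0.12, Cry1 -0.0985 to 0.0254, Cry2 -0.0985 to 0.00164, Npas2 -0.28 to 0.0489, Nr1d1 -0.13 to 0.0713, Per1 -0.20 to 0.10, Per2 -0.0972 to 0.0833. For the interaction these were Clock -0.0845 to 0.0346, Cry2 -0.0665 to 0.0336, Npas2 -0.22 to 0.11, Per1 -0.22 to 0.0774, Per2 -0.12 to 0.0654, Per3 -0.0157 to 0.12. For the knockout on water these were Cry1 -0.0286 to 0.0814, Npas2 -0.0612 to 0.0778, Per3 -0.0169 to 0.11. For fructose in the knockout these were Dbp -0.0339 to 0.17, Per2 -0.0841 to 0.0513. For genotype on average these were Dbp -0.0143 to 0.0955, Npas2 -0.10 to 0.0598. For the knockout on fructose these were Npas2 -0.21 to 0.12, Nr1d1 -0.10 to 0.0563. For fructose on average these were Nr1d1 -0.00096 to 0.10, Per2 -0.0644 to 0.0347. FPKM keeps no depth, so the precision of low genes such as Per3 and Cry1 is unknown.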
